A study of Mus musculus with 10 samples.

Results

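Focal adhesions are the sites where integrin receptors, anchored in the extracellular matrix, are coupled to actin filaments inside the cell. Talin binds the integrin tail and actin, vinculin strengthens that link under load, and adaptor proteins with LIM domains such as paxillin and zyxin gather around it. Alpha-actinins and filamin A crosslink the attached filaments, and tropomyosins coat them. In the mammary gland the basal layer is a contractile epithelium that lies on the basement membrane, whereas luminal cells face the lumen of the duct.

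The 10 genes described here encode such proteins and were taken by name from the 24594 genes of the count table. They are the crosslinkers Actn1, Actn4 and Flna, the integrin linkers Tln1 and Vcl, the LIM adaptors Pxn and Zyx, and the tropomyosins Tpm1, Tpm2 and Tpm4. They were measured by bulk RNA-seq in 5 libraries of sorted luminal and 5 of sorted basal cells from wild type virgin C57BL/6J mice with no other treatment, whose age the labels do not give. The cells were dissociated with collagenase, hyaluronidase, trypsin and dispase and separated by EpCAM and CD49f on a cell sorter, and the libraries held 13203146 to 17998165 counts. In all 10 libraries the title gives the other cell type than the cell type label does, and groups follow the label.

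The labelled cell types were checked against marker genes. All 9 luminal markers listed were higher in the libraries labelled luminal and all 7 basal markers in those labelled basal (edgeR quasi-likelihood, adjusted p under 0.05). In luminal libraries the summed basal markers stood at 0.216% to 0.615% of their mean basal level. The 6 fibroblast markers summed to 23.6 to 111 CPM (counts relative to the library total scaled by TMM factors) in luminal and 26.7 to 41.7 CPM in basal libraries, and the 5 endothelial markers to 2.68 to 7.09 and 6.995 to 13.9 CPM. Of the fibroblast markers, 1 was higher in basal and 1 in luminal libraries. Of 3 endothelial markers tested, Cdh5 was higher in basal libraries (4.58 against 0.217 CPM on average) and 0 in luminal ones. Of 6 tested pericyte and vascular smooth muscle markers, 5 were higher in basal libraries and Notch3 was higher in luminal ones. Sums over the 8 listed were 94.8 to 269 CPM in luminal and 41.9 to 65.9 CPM in basal libraries. Notch3 averaged 165 CPM in luminal and 4.58 CPM in basal libraries, and so made up most of the luminal sums. The most abundant of the 8 in basal cells was Rgs5, at 21.7 CPM on average against 0.159 CPM in luminal cells. The part of such cells in the levels given next was not tested. Immune markers summed to at most 34.4 CPM and adipocyte markers to at most 8.87 CPM in any library, and erythroid markers reached 16.8 CPM in a luminal library, while Higd1b, Cd3e and Adipoq had no counts. Of 3 immune markers tested, Cd74 was higher in basal libraries (20.7 against 2.62 CPM on average) and 2 were higher in luminal ones. The adipocyte marker tested, Fabp4, was higher in basal libraries (5.41 against 1.01 CPM). The part of these cell types in the levels given next was not tested either. In bulk RNA, fewer cells of a type and less RNA per cell cannot be told apart.

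The first question was whether transcripts of focal adhesion and actin crosslinking proteins differ in level between the layers. All 10 genes passed the filter on low counts, and 9 were higher in basal cells at an adjusted p under 0.05 (edgeR quasi-likelihood test, Benjamini-Hochberg over 14609 genes tested). Over all genes tested, 64.8% differed by the same rule, 31.2% being higher in basal cells and 33.6% in luminal cells. None of the 10 was higher in luminal cells, and the count was also 0 at an unadjusted p under 0.05 in edgeR and at an adjusted p under 0.05 in DESeq2 and limma voom. Zyx was the gene without a difference past the threshold. By a log2 fold change of 1 or more, 8 of the 10 were higher in basal cells, as were 19.1% of all genes tested. For 8 of the 10 genes the lowest basal library was above the highest luminal one, as it was for 25.4% of all genes tested. None of the 10 had all luminal libraries above all basal ones, as 24.7% of all genes had. The median log2 fold change, luminal against basal, was -1.58 for the 10 genes and 0.05 for all genes tested. The share of all counts that fell on the 10 genes was 0.240% ± 0.0282 (SD, n = 5) in luminal cells and rose to 0.901% ± 0.138 (SD, n = 5) in basal cells.

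**Figure D1:**
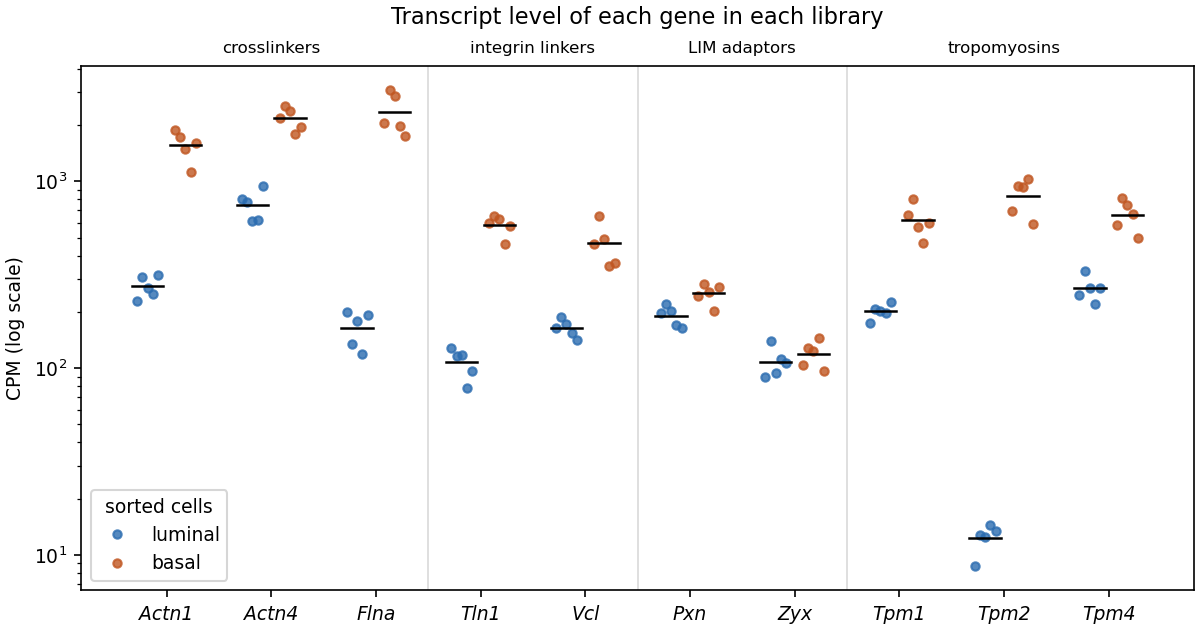
Transcript level of each of the 10 genes, as CPM on a log axis, with 1 point per library and a bar at the mean of the 5 luminal or 5 basal libraries. The groups are separate for 8 genes and overlap for Pxn and Zyx, and luminal Tpm2 lies lowest at 8.68 to 14.5 CPM.

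The crosslinkers were examined first. Actn1 (Entrez 109711, GRCm38 chr12:80167542-80260420) encodes alpha-actinin-1, a dimer that bundles actin filaments. It was at 230.0, 306, 267, 250 and 317 CPM in luminal replicates 1 to 5 and at 1891, 1737, 1489, 1128 and 1607 CPM in basal replicates 1 to 5. Every basal library thus exceeded every luminal library, the lowest being basal replicate 4. Actn1 differed by a log2 fold change of -2.52 (SE 0.18, adjusted p 2.55e-08 by edgeR), which is a level 5.73-fold higher in basal cells.

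Its paralogue Actn4 (Entrez 60595, chr7:28893248-28962351), alpha-actinin-4, was the most abundant of the 10 genes in luminal cells, at 804, 772, 615, 622 and 942 CPM in replicates 1 to 5. In basal replicates 1 to 5 it was at 2194, 2546, 2380.5, 1785 and 1965 CPM. The lowest basal library was thus at nearly 2 times the highest luminal one. Means were 751 ± 137 and 2174 ± 307 CPM (SD, n = 5), a log2 fold change of -1.53 (SE 0.18, adjusted p 3.4e-06 by edgeR). Both alpha-actinin genes were higher in basal cells, but by unequal amounts.

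Flna (Entrez 192176, chrX:74223461-74249854) encodes filamin A, a large flexible protein that joins filaments into networks and binds integrin tails. It was at 199, 135, 179, 119 and 191 CPM in luminal replicates 1 to 5 and at 2040.0, 3092, 2861, 1968 and 1739.7 CPM in basal replicates 1 to 5. The groups lay far apart, with basal replicates 2 and 3 above the other basal libraries. Flna differed by a log2 fold change of -3.83 (SE 0.23, adjusted p 5.42e-09 by edgeR), which is 14.2-fold higher in basal cells. It had the highest mean CPM of the 10 genes in basal cells, although it did not when counts were set against transcript length, as given further on.

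The integrin linkers differed in the same direction. Tln1 (Entrez 21894, chr4:43531513-43562583) encodes talin-1, which activates integrins and ties them to actin. It was at 128, 116, 118, 78.0 and 96.7 CPM in luminal replicates 1 to 5 and at 599, 652, 629, 463 and 577 CPM in basal replicates 1 to 5. Replicate 4 was the lowest library of either cell type, and the groups were far from overlapping. Tln1 was 5.44-fold higher in basal cells (log2 fold change -2.44, SE 0.17, adjusted p 1.91e-08 by edgeR).

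Vcl (Entrez 22330, chr14:20929383-21033676) encodes vinculin, which binds talin once talin is stretched. It was at 164, 188, 171, 155 and 142 CPM in luminal replicates 1 to 5 and at 464, 655, 490, 351 and 364 CPM in basal replicates 1 to 5. Basal replicate 2 stood above the other basal libraries, as it did for Tln1, and all basal libraries were above the luminal ones. Vcl was 2.83-fold higher in basal cells (log2 fold change -1.50, SE 0.18, adjusted p 4.83e-06 by edgeR). Vcl shares 2090 of its 8191 exon bases (25.5%) with Ap3m1 on the opposite strand, itself higher in basal cells by a log2 fold change of -1.20 (SE 0.15, adjusted p 9.02e-06 by edgeR). The library kit named in the labels does not mark strand, so reads from the shared stretch cannot be told apart.

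The LIM adaptors were the genes with the smallest differences. Pxn (Entrez 19303, chr5:115491970-115555987) encodes paxillin, a scaffold that recruits kinases and exchange factors to new adhesions. It was at 198, 219, 202, 170.2 and 165 CPM in luminal replicates 1 to 5 and at 243, 283, 256, 203 and 272 CPM in basal replicates 1 to 5. Basal replicate 4 lay below luminal replicate 2, so the groups overlapped. Pxn was higher in basal cells by a log2 fold change of -0.40 (SE 0.14, adjusted p 0.0209 by edgeR). The call was lost with upper-quartile factors (-0.28, adjusted p 0.0876), with library totals only (-0.20, adjusted p 0.255), and without luminal replicate 5 (-0.35, adjusted p 0.0533), basal replicate 2 (-0.36, adjusted p 0.0524) or basal replicate 5 (-0.37, adjusted p 0.0566).

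Zyx (Entrez 22793, chr6:42349511-42360213) encodes zyxin, which moves onto strained actin filaments and brings in factors that extend them. It was at 89.9, 139, 94.0, 111 and 107 CPM in luminal replicates 1 to 5 and at 104, 128, 123, 144 and 96.7 CPM in basal replicates 1 to 5. The libraries of the cell types were interleaved, and luminal replicate 2 was above 4 of the 5 basal libraries. The log2 fold change was -0.14 with a 95% interval of -0.47 to 0.19 (adjusted p 0.448 by edgeR), and it became 0.049 (adjusted p 0.80) with library totals only. A difference as large as that of any other gene of the 10 except Pxn lay outside the interval.

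**Figure D2:**
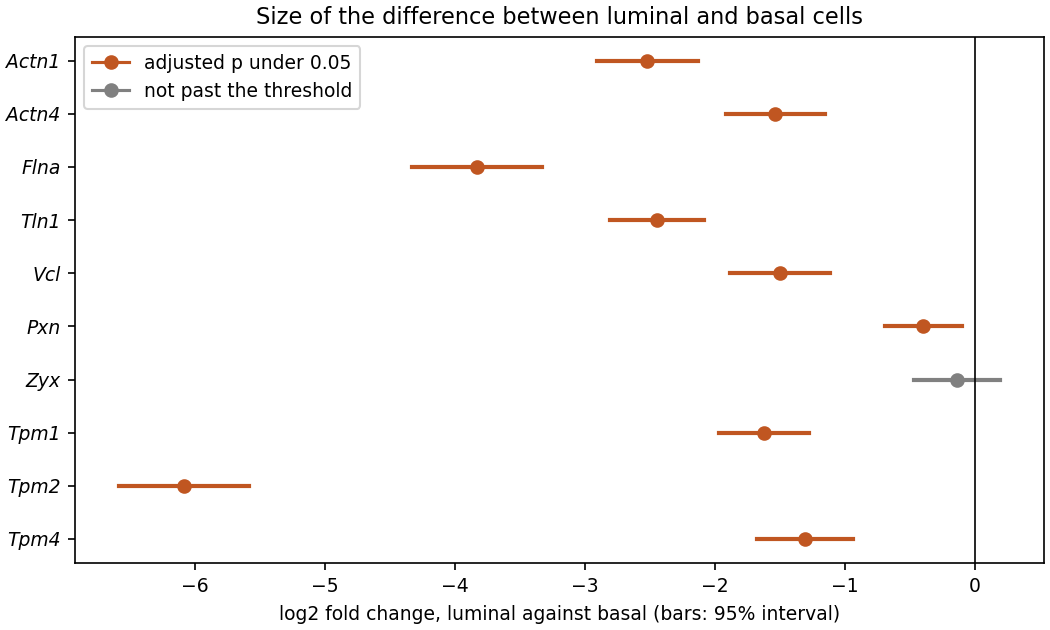
Log2 fold change of the 10 genes, luminal against basal, from edgeR, with bars for the 95% interval. The values run from -6.08 for Tpm2 to -0.14 for Zyx, the only gene whose interval holds 0.

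The tropomyosins, coiled-coil proteins that lie along actin filaments and set which myosins and severing factors reach them, held the largest difference. Tpm2 (Entrez 22004, chr4:43513726-43523583) encodes beta-tropomyosin, known from muscle and contractile cells. It was at 8.68, 12.8, 12.4, 14.5 and 13.4 CPM in luminal replicates 1 to 5 and at 692, 945, 931, 1029 and 587 CPM in basal replicates 1 to 5. Tpm2 differed by a log2 fold change of -6.08 (SE 0.23, adjusted p 1.12e-10 by edgeR), which is 67.7-fold higher in basal cells. The luminal libraries held 139 to 243 counts of Tpm2, or 1.04% to 1.73% of its mean basal level, where the summed basal markers stood at 0.216% to 0.615%. Single markers could stand higher than their sum. Krt14 reached 26.7 CPM and Krt5 18.1 CPM in a luminal library, against basal means of 2430 and 1720 CPM. The part of basal cells in the luminal Tpm2 level was not tested.

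The other tropomyosins were less far apart. Tpm1 (Entrez 22003, chr9:67022590-67049672) encodes alpha-tropomyosin and yields muscle and non-muscle forms, which gene counts do not separate. It was at 174, 207, 201, 197 and 227 CPM in luminal replicates 1 to 5 and at 664, 799, 569, 467 and 596 CPM in basal replicates 1 to 5. The luminal libraries were close together and the basal ones all above them, with a log2 fold change of -1.62 (SE 0.16, adjusted p 7.93e-07 by edgeR). Tpm4 (Entrez 326618, chr8:72135288-72153142), the gene of a short non-muscle tropomyosin, was at 245, 333, 270, 222 and 269 CPM in luminal replicates 1 to 5 and at 580.2, 811, 750, 671 and 496 CPM in basal replicates 1 to 5. Replicate 2 was the highest library of either cell type, and Tpm4 had the smallest difference of the 8 genes without overlap, with a log2 fold change of -1.30 (SE 0.17, adjusted p 1.22e-05 by edgeR). Of the 51-base words in Tpm4 transcripts, 15.5% also occur in transcripts of other genes, most of them in Gm7809, so its counts are less certain than those of Tpm1 and Tpm2, for which the share is 0%.

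Because a ratio of counts of a gene pair within a library does not depend on how libraries are scaled, 8 such ratios were compared between the cell types with an exact permutation test (two-sided, smallest possible p 0.00794, Benjamini-Hochberg over the 8). The 7 ratios between genes of the 10 are given here. In 5 of these the luminal and basal libraries were fully separated, each at the smallest possible exact p of 0.00794 (adjusted p 0.0106). The ratio Actn1/Actn4 was 0.286 to 0.435 in luminal and 0.626 to 0.862 in basal libraries, a difference of -0.97 on the log2 scale. Alpha-actinin-1 transcripts thus made up a larger part of the pair in basal cells.

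Among the tropomyosins, Tpm2/Tpm4 was 0.0354 to 0.0654 in luminal and 1.17 to 1.53 in basal libraries (log2 difference -4.78), and Tpm1/Tpm2 was 13.6 to 20.1 in luminal and at most 1.02 in basal libraries (4.47). Tpm1/Tpm4 overlapped between the cell types and did not pass (log2 difference -0.31, exact permutation p 0.143, adjusted p 0.163). The luminal libraries held less Flna per Actn4 (log2 difference -2.28).

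For the integrin linkers, the count ratio Vcl/Tln1 was 1.29 to 1.99 in luminal and 0.632 to 1.01 in basal libraries (log2 difference 0.99), a larger difference for Tln1 than for Vcl. Which of the pair had the higher level in basal cells depended on the length used, at 56.8 for Vcl and 59.6 for Tln1 per kilobase of exons and at 88.3 and 69.6 per kilobase of the longest transcript. Reads of Ap3m1 counted to Vcl would enter this ratio. Pxn/Zyx overlapped and did not pass (log2 difference -0.26, exact permutation p 0.294, adjusted p 0.294).

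**Figure D3:**
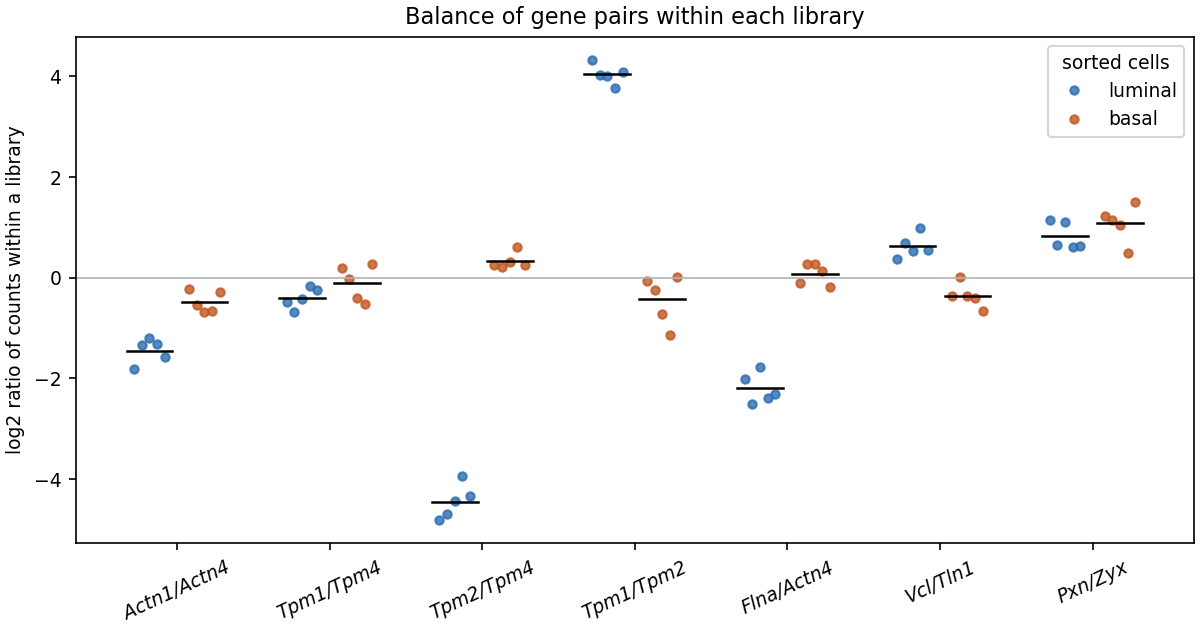
Log2 ratio of the counts of 7 gene pairs in each library, with a bar at the mean of each group of 5. The groups are separate for 5 pairs, most widely for Tpm2/Tpm4 and Tpm1/Tpm2, and overlap for Tpm1/Tpm4 and Pxn/Zyx.

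To set genes against each other, CPM were divided by the summed length of the annotated exons in kilobases. On this scale of levels per kilobase, luminal cells had most Actn4 (123 ± 22.4, SD, n = 5) and Tpm4 (121 ± 18.8), whose ranges overlapped, then Actn1 (49.5 ± 6.67) and Tpm1 (31.0 ± 2.94). Pxn, Zyx, Vcl and Flna lay between 17.5 and 23.3 on average, Tln1 at 10.9 ± 2.03 and Tpm2 lowest at 4.25 ± 0.754. In basal cells the first 5 were Actn4 (291 to 415), Tpm4 (300.2 ± 57.6), Tpm2 (288 ± 64.5), Actn1 (284 ± 52.3) and Flna (249 ± 63.5), and their ranges overlapped from each to the next. Tpm1 followed at 95.4 ± 19.0, then Tln1, Vcl and Pxn, with Zyx lowest at 22.1 ± 3.56. Tpm2 was thus last of the 10 in luminal and among the first 5 in basal cells. With the longest transcript as the length, the luminal order was the same and in basal cells Actn1 moved from rank 4 to rank 2, Tpm4 from rank 2 to rank 4, and Vcl came before Tln1.

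On this scale Actn1 made up 29.0% ± 3.38 of the summed alpha-actinins in luminal and 44.3% ± 3.66 in basal cells (SD, n = 5). With the longest transcript as the length this share moved by less than its SD.

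The tropomyosin make-up was examined on the same scale, with Tpm3 included. Tpm4 was the largest part in luminal cells, at 65.9% ± 2.84 (SD, n = 5), and Tpm2 made up 2.33% on average (1.78% to 3.10% in the 5 libraries). In basal cells Tpm4 made up 42.7% ± 1.61 and Tpm2 40.8% ± 3.95 (SD, n = 5). The share of Tpm3 was 14.7% ± 1.44 in luminal and 2.68% ± 0.551 in basal cells (SD, n = 5), and the share of Tpm1 overlapped between the groups (14.9% to 18.9% and 9.60% to 17.1%). Shares depended on the length used. With the longest transcript Tpm4 took 46.4% of the luminal and 32.3% of the basal sum, and Tpm3 took 25.6% and 5.01%. Tpm2 then took 2.11% of the luminal and 39.96% of the basal sum, and its basal range (35.6% to 47.3%) lay above that of Tpm4 (30.7% to 34.6%).

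**Figure D4:**
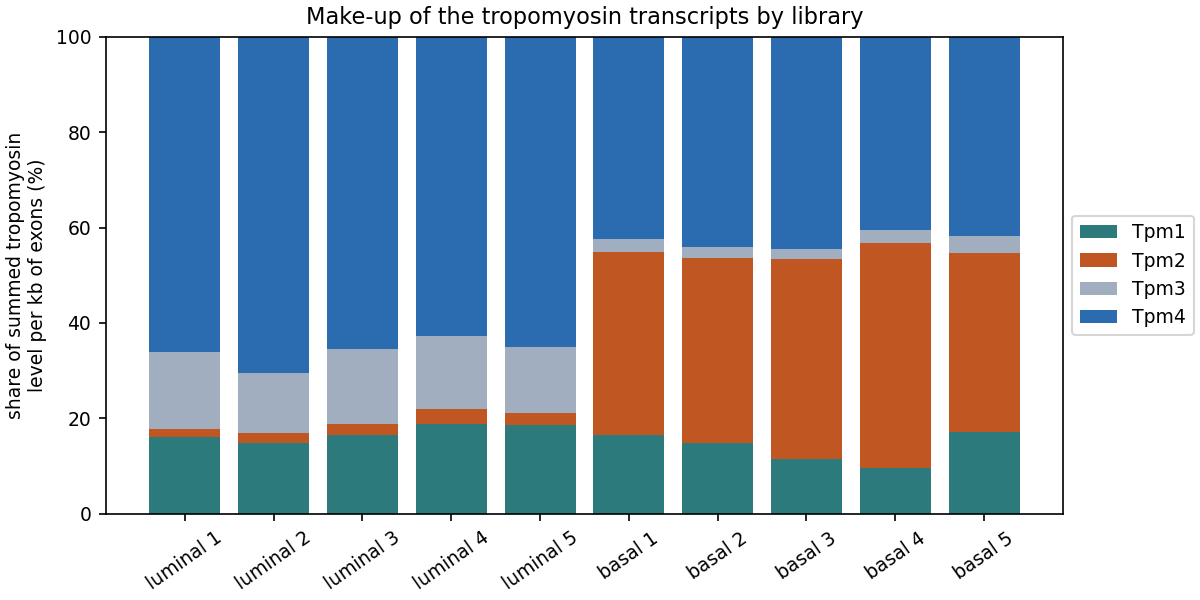
Share of Tpm1, Tpm2, Tpm3 and Tpm4 in the summed tropomyosin level per kilobase of exons, in percent, with 1 stacked bar per library. Tpm2 takes 37.5% to 47.2% in basal and 1.78% to 3.10% in luminal libraries.

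The basal libraries differed among themselves in several of the genes at once. Basal replicate 2 was the highest basal library for 7 of the 10 genes, basal replicate 4 the lowest for 6 and basal replicate 5 the lowest for the other 4. The summed level of the 10 genes was 9470.2, 11647, 10479, 8209.8 and 8301 CPM in basal replicates 1 to 5. Among luminal libraries, replicate 2 was the highest for 4 genes and the lowest for none, replicate 1 the highest for 2 and the lowest for 4, replicate 4 the highest for 1 and the lowest for 3, and replicate 5 the highest for 3 and the lowest for 2. The summed level was 2240.3, 2427, 2130.0, 1939 and 2471 CPM in luminal replicates 1 to 5, so that the lowest basal library had more than 3 times the highest luminal sum. Coefficients of variation ran from 9.46% (Tpm1) to 21.5% (Flna) in luminal and from 12.4% (Pxn) to 26.3% (Vcl) in basal libraries.

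Genes known to be induced when tissue is dissociated were set beside these values. Of 12 such genes, 10 were higher in basal cells, while the heat-shock genes Hspa1a and Hspa1b were higher in luminal cells. The summed level of the 12 was 4925 to 6839 CPM in luminal and 5441 to 10679 CPM in basal libraries. Hspa1a and Hspa1b averaged 1731 and 1757 CPM in luminal and 754 and 783 CPM in basal libraries. These 2 genes thus made up a large part of the luminal sums. Jun, Atf3, Egr1, Ier3, Dusp1 and Nr4a1 were higher in basal libraries without overlap of the groups. For Fos, Fosb, Junb and Ier2, also higher in basal cells, the groups overlapped. The highest sum was in basal replicate 1, which was the highest basal library for 1 of the 10 adhesion genes, Actn1. The part of dissociation in the differences was not tested.

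The genomic setting of the 10 genes was described from RefSeq and GENCODE annotation of GRCm38. Tpm2 and Tln1 are neighbours on chromosome 4, both on the minus strand, with 7929 bases and no annotated RefSeq gene between them. Beside Vcl, the genes Actn1, Actn4, Tln1, Zyx and Tpm4 share 3.67% to 6.56% of their exon bases with a gene on the opposite strand, and Actn1 shares a further 1.59% with another, and Flna, Pxn, Tpm1 and Tpm2 share none.

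The series title names the transcription factor SRF, so RefSeq promoter sequences of 9 genes (Pxn had no entry) were searched for its binding motif, the CArG box, in the 250 bases before the start site. The box reads the same on both strands, so a search of either strand covers the other. Vcl held an exact box, which 1.47% of 32851 RefSeq promoters hold, and Flna and Tpm1 held a stretch matching 9 of the 10 positions, which 18.6% of promoters hold or exceed. Actn4 matched 8 positions, and Actn1, Tln1, Zyx, Tpm2 and Tpm4 matched 7, as do or exceed 75.2% and 98.0% of promoters. Of the sequences below, 5′ to 3′ on the strand of the gene with the best-matching stretch in capitals, the first 3 are the closest matches and the last 2 belong to the genes with the largest and the smallest difference. They lie at chr14:20929161-20929190 (plus strand), chrX:74246559-74246588 (minus), chr9:67049274-67049303 (minus), chr4:43523661-43523690 (minus) and chr6:42349774-42349803 (plus) of GRCm38.p6.
Vcl: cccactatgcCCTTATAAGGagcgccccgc
Flna: ctttcgcataCATTTAAAGGgctcgctctt
Tpm1: acaagcttttCCAAAAAAGTattggctgtc
Tpm2: ccgcagtgagCTAGTTTTGCttccgacggc
Zyx: acatcagaggCCTGTGCTGGggaagggtgg
The stretches in Vcl, Flna and Tpm1 begin 227, 44 and 80 bases before the start site. Each gene searched had 1 promoter entry, and other start sites were not searched. The sequences shown for Flna, Tpm1 and Zyx lie inside the annotated gene, so the start site used there is not its outermost one. Vcl, with the exact box, had a log2 fold change of -1.50, and Flna and Tpm1, with 9 positions matched, had -3.83 and -1.62. Among the genes with 7 positions matched, values ran from -6.08 (Tpm2) to -0.14 (Zyx). A match describes letters in this window and not binding.

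Other genes of the same structures were listed from general knowledge, and their counts are given beside those of the 10. Of 29 focal adhesion adaptors and kinases tested, 20 were higher in basal and 6 in luminal cells, with a median log2 fold change of -1.08. Among those with the largest differences were Lims2 (-7.03, SE 0.51), which encodes a partner of integrin-linked kinase, and Tns1 (-5.16, SE 0.35), which encodes tensin-1. Lims2 had at most 12 counts in a luminal library, and its log2 fold change was -7.83 with limma voom. On the luminal side were Ptk2b (4.03, SE 0.37), a relative of focal adhesion kinase, Sorbs3 (1.42, SE 0.15), which encodes the vinculin binder vinexin, and Arhgef6 (1.41, SE 0.19), an exchange factor for Rac.

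Of 17 LIM-domain relatives of zyxin and paxillin tested, 13 were higher in basal and 2 in luminal cells (median -1.35). Tgfb1i1, whose product Hic-5 is the closest relative of paxillin, was at 2.74 ± 0.644 CPM in luminal and 262 ± 53.7 CPM in basal cells (SD, n = 5; log2 fold change -6.57), against -0.40 for Pxn itself. Fblim1 (-4.12) and Pdlim7 (-2.80) followed, and Pdlim2 (3.44) and Csrp2 (1.17) were higher in luminal cells. The Csrp2 groups overlapped, and its call was lost with limma voom (1.04) and without luminal replicate 2 (1.19), luminal replicate 4 (0.68), or basal replicate 2 (1.04), 3 (1.09) or 5 (1.02).

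Of 18 other crosslinkers and bundlers tested, 12 were higher in basal and 5 in luminal cells (median -0.92). Synpo2 (-6.07), Palld (-5.82), which encodes palladin, and Fscn1 (-3.49), which encodes fascin, were higher in basal cells. The plastin genes Lcp1 (7.10) and Pls1 (5.82), whose products bundle filaments tightly, and Lasp1 (2.87) were higher in luminal cells. The plastin gene Pls3 was higher in basal cells (-2.56, SE 0.16). Crosslinkers thus lay on both sides, whereas Actn1, Actn4 and Flna lay on the basal side.

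Of 9 tropomyosin partners, 5 were higher in basal and 3 in luminal cells (median -2.02). Cnn1 (-9.02), Lmod1 (-7.19) and Cald1 (-5.18), the genes of calponin-1, leiomodin-1 and caldesmon, were higher in basal cells. Tmod3 (2.20), which encodes a cap of the slow-growing filament end, Tmod1 (0.59) and Tpm3 (0.55, SE 0.12, adjusted p 0.000915 by edgeR) were higher in luminal cells. Tpm3 was thus the only tropomyosin gene of the 4 that was higher in luminal cells.

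Of 10 integrins of focal adhesions, 6 were higher in basal and 3 in luminal cells (median -1.39). Itgb3 (-5.36), Itga1 (-3.85) and Itga5 (-3.40), the latter part of the fibronectin receptor, were higher in basal cells. Itgb6 (3.02), Itga2 (1.03) and Itgb5 (0.44) were higher in luminal cells, but the Itgb5 groups overlapped and its call was lost under 11 of 18 alternatives, among them the replicate number as a block (0.40, adjusted p 0.10) and leaving out luminal replicate 1 (0.28), 2 (0.45) or 5 (0.44) or basal replicate 1 (0.36), 2 (0.43) or 5 (0.41). No list was tested as a set.

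**Figure D5:**
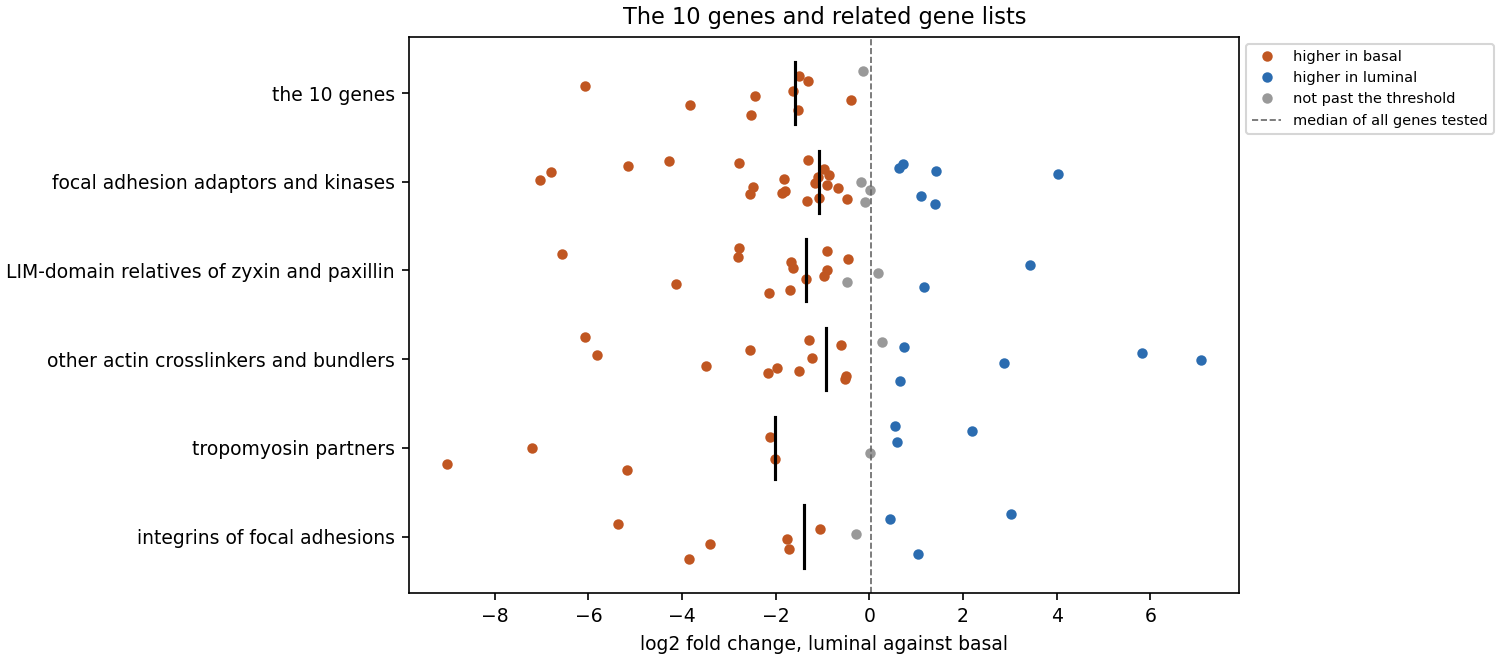
Log2 fold change, luminal against basal, of the 10 genes and of 5 related lists, with 1 point per gene tested, a bar at each median and a dashed line at the median of all genes tested (0.05). The medians of the 6 lists lie between -2.02 and -0.92, and all lists but the 10 genes hold genes higher in luminal cells.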

How the data were processed

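The deposited table holds the authors' raw counts, whole numbers for each gene with 1 column per library, which were not normalized. The submitters' processing notes name cutadapt 4.2 and Bowtie2 2.3.5.1, with the builds mm10 and hg19. The study's methods describe poly(A) selection and single-end reads aligned to mm10, but for fewer replicates per condition than here, and their use for these libraries is an assumption. Which tool and annotation gave the counts is not given in the sources used here. Bowtie2 does not align across splice junctions. Of 24594 Entrez identifiers, 24570 matched a symbol of RefSeq assembly GRCm38.p6.

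Genes were filtered with filterByExpr (minimum count 10, total 15), scaled with TMM and compared with edgeR's quasi-likelihood test (edgeR 4.0.16 in R 4.3.3) in a model of cell type alone, with Benjamini-Hochberg adjustment over 14609 genes. Each SE was obtained by dividing the absolute log2 fold change by the root of its F statistic. CPM were computed on TMM-scaled totals. Exon lengths and shared 51-base words came from GENCODE M21. The test was also run on simulated counts, and the outcome is not reported here. DESeq2 1.42.0, limma 3.58.1 voom, other scalings and filters, the replicate number as a block and leaving out each library were alternatives. Labels do not say that replicates came from separate animals, so p-values measure the spread between these libraries, which may be technical.

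The 10 genes and the lists were chosen with earlier results of these data known. Named genes are the 10, and in each other list up to 3 past the threshold at either end when ordered by log2 fold change. Other genes named were chosen after their values were seen. The longest transcript as length and the scoring of partial CArG matches were added after the data were seen. A planned comparison of protein sequences was not made here. Some genes that this rule names, and the ratio that holds one of them, are not reported here.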

Additional observations from a re-analysis of the deposited data

Results flagged for a closer look

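Dixon's criterion was applied to 112 sets of 5 values, and 5 of them contained an extreme library, a number close to the 5.6 that chance would give. Among the 10 genes, the Tpm2/Tpm4 log2 ratio was high in basal replicate 4, at 0.617 against 0.222 to 0.312 in the other basal libraries. Of the related genes, Tns1 reached 6.31 CPM in luminal replicate 2, the other luminal libraries being at 2.06 to 2.54, and Pdlim2 reached 9.31 CPM in basal replicate 4, the other basal libraries being at or below 3.80. Lcp1 had its lowest value, 0.312 CPM, in basal replicate 4, while the other basal libraries were at 0.838 to 1.02 CPM. Lasp1 had its lowest basal value, 31.6 CPM, in basal replicate 1, while the others were at 56.7 to 66.0 CPM. The cause of these values was not tested.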

How the results depend on the processing

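The 10 genes had 180 values under alternative settings, of which 174 had the same sign and the same call. The exceptions were Pxn, which lost its call with upper-quartile factors (-0.28) and library totals only (-0.20) and ranged from -0.48 to -0.35 with a library left out, and Zyx, which turned positive with library totals only (0.049). Upper-quartile factors shifted the median of all genes by 0.12 and library totals by 0.19, towards luminal cells. The number of the 10 genes higher in basal cells was 8 or 9 in every fit, those that left out a library included. All 96 alternative values of the ratios kept their call. For a fully separated ratio, leaving out a library cannot end the separation, so those calls could not change and show no stability. Requiring at least 10 counts in every library left 3 other crosslinkers higher in luminal cells and 3 tropomyosin partners higher in basal cells, since it drops genes nearly uncounted in 1 group. LIM-domain relatives higher in luminal cells numbered 1 with limma voom, 3 with library totals only or no filter, and 1 to 2 with a library left out. With library totals only, 9 other crosslinkers were higher in basal and 6 in luminal cells. The cause was not tested.

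With the replicate number as a block, 9 of the 10 genes were higher in basal cells, from -6.07 (Tpm2) to -0.40 (Pxn), and of the genes of the related lists named, Itgb5 changed its call. Over all genes 9279 were called with the block and 9462 without. Same-numbered libraries also share a number in their description, whose meaning the labels do not state. Their deviations correlated at -0.134 to 0.252 across genes, and 3 of 10 libraries correlated best with their own number.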
